A study of Mus musculus with 2 samples.

Results

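The mitochondrially encoded genes described here are the 37 genes, of 55487 in the deposited count table, whose symbols begin with mt-. They were taken by symbol alone, with no measured value used. Their transcripts come from the mitochondrial chromosome (chrM), a small circular genome that is copied into RNA from both strands as long precursors and then cut, mostly at the transfer RNAs, into ribosomal, messenger and transfer RNAs. Every protein it encodes is a subunit of the oxidative phosphorylation complexes I, III, IV and V, which also need many subunits encoded in the nucleus, while complex II is encoded in the nucleus alone. In single-cell work the summed share of mt- transcripts is also a common filter for damaged cells.

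The cells were thymic mimetic cells, which are epithelial cells of the thymic medulla (mTECs) that take on parts of the programs of cell types found elsewhere in the body, such as tuft cells, keratinocytes or neuroendocrine cells. They came from the thymi of female mice aged 6 weeks, 2 each of the strains C57BL/6 (B6), BALB/c and NOD, with no treatment or engineered allele named for any group. After enzymatic digestion, CD45+ cells were depleted with magnets and Pdpn- CD104- mTEClo cells were sorted, that is, cells of the mTEClo fraction without podoplanin or the integrin subunit CD104. The cells of all 6 mice entered 1 droplet library (10x Genomics 3' v3.1), in which antibody hashtags tie each barcode to a mouse. The mouse is therefore the replicate, and all mice share 1 library. The hashtag label writes the number 1 for both NOD mice, the other labels give 2 NOD mice, and the HT8 mouse is called NOD 2 here.

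Of 3447 barcodes, 2735 had at least 500 detected genes, and 2527 of these were under the bound of 15% mt- UMIs (unique molecules). A barcode was assigned to a mouse when 1 of the 6 hashtags held at least 80% of at least 100 hashtag UMIs, which held for 1705 barcodes under the bound and 1879 without it. Marker gates that use no mt- gene took 1567 of the 1705 as epithelial. Most of these fell in 13 classes, each named for the markers it was gated on, such as tuft-like. The remaining ones passed more than 1 gate with no clear lead and no leukocyte gate. They belong to no class, but count in the values for all epithelial barcodes and for those outside a class. The 12 tuft markers, which set that gate, had a UMI in a median of 93.3% of tuft-like and 7.73% of other epithelial barcodes. Per mouse there were 204 and 205 epithelial barcodes for B6, 383 and 557 for BALB/c and 104 and 114 for NOD, with 2076965 to 9185164 UMIs. Epcam, an epithelial surface protein, had a UMI in 95.5% of the epithelial barcodes. The transcripts of the sorted-against proteins had one in 12.1% (Pdpn) and 48.4% (Itgb4, which encodes CD104), and Ptprc, which encodes CD45, in 8.04%. In the tuft-like sums the 12 myeloid or dendritic markers together made 141 to 411 CPM per mouse (UMIs on the counts-per-million scale), the 12 thymocyte markers 16.3 to 104 and the 10 epithelial markers 6668 to 11254, and the part of such RNA in the results below was not tested.

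Over all barcodes the mt- genes were a very uneven set. The 2 ribosomal RNA genes, mt-Rnr1 and mt-Rnr2, made 56.9% of all mt- UMIs, the 13 protein-coding genes 43.0% and the 22 transfer RNA genes 0.113%. The transfer RNA genes had 5 to 280 UMIs each, and those with the most were mt-Tc (280), mt-Ta (203) and mt-Ts2 (192). Among the protein-coding genes the totals ran from 753 UMIs for mt-Nd3 to 251521 for mt-Cytb. Per kilobase of gene and over the epithelial barcodes, mt-Rnr2 led with 172236 UMIs, followed by mt-Cytb with 98053, mt-Rnr1 with 69807 and mt-Nd1 with 36695, and mt-Nd3 was the lowest of the protein-coding genes with 894. A 3' protocol counts 1 end of each molecule, so a level per kilobase is not a molecule count. Reads of mt-Co2, mt-Co3, mt-Atp6, mt-Nd4l and part of mt-Nd4 can also match identical nuclear copies, described further on. How such reads were counted is not given, and their part in the order of these genes was not tested. Of the 37 genes, 15 passed the low-count filter in the fits across cell types, namely both ribosomal RNA genes and all 13 protein-coding genes. In the fits across strains 19 passed over all epithelial barcodes and 17 within the tuft-like class, the added genes being transfer RNA genes. The remaining genes were too low to test. Among ribosomal and protein-coding neighbours, genes overlap on chrM by more than 1 base in the pairs mt-Atp8 (7766 to 7969) with mt-Atp6 (7927 to 8607), mt-Nd4l (9877 to 10173) with mt-Nd4 (10167 to 11544) and mt-Nd5 (11742 to 13565) with mt-Nd6 (13552 to 14070, the opposite strand), in build mm10; mt-Atp6 and mt-Co3 share the base 8607, and mt-Nd1, mt-Nd2 and mt-Co1 overlap by a few bases with the transfer RNA genes mt-Ti, mt-Tw and mt-Ts1. Reads there are uncertain between the genes of a pair.

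The first question was how the share of mt- transcripts differed between cell types. It was highest in the tuft-like class, named for chemosensory cells, at 3.59% of summed UMIs (513 barcodes), and lowest in the keratinocyte-like class at 1.17% (151 barcodes). Between them, in falling order, stood epithelial barcodes outside every gate (2.85%), collagen VI+ mTECs (Col6+, 2.78%), Ccl21a-high immature mTECs (2.24%), Mybpc1+ mTECs (2.01%) and the ciliated-like class (1.93%). The lower end held the enterocyte-hepatocyte-like (1.64%), neuroendocrine-like (1.55%), Aire+ (1.42%), muscle-like (1.42%), microfold-like (1.30%) and cycling (1.18%) classes. Neighbours in this order could lie within the spread between mice: Col6+ mTECs had 2.82% ± 0.201 (SD, n = 4 mice with at least 10 such barcodes) and the ungated epithelium 2.78% ± 0.679 (n = 4).

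**Figure D1:**
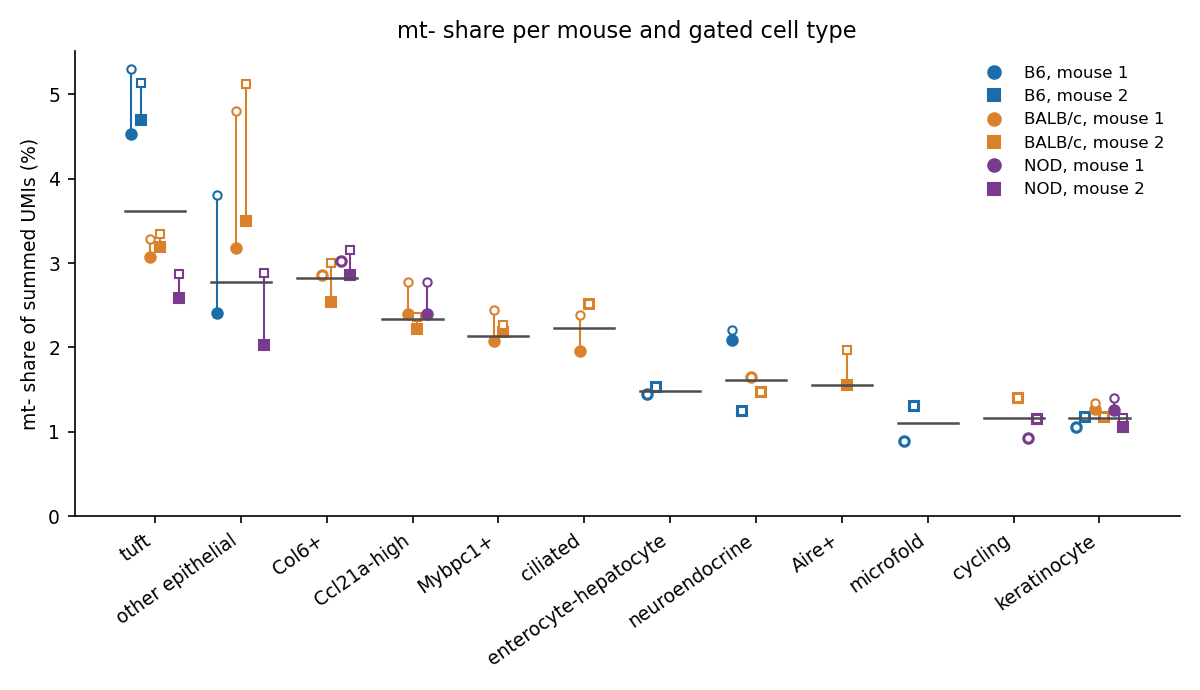
mt- share of summed UMIs (%, vertical axis) for each gated cell type (horizontal axis), 1 point per mouse with at least 10 barcodes of the type. Filled points use barcodes under the 15% bound, open points drop the bound, and grey lines are means over mice of the filled points; the tuft-like points lie between 2.59 and 4.69% and the keratinocyte-like points between 1.05 and 1.27%.

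Within mice, the tuft-like share was 4.53 and 4.69% for B6, 3.07 and 3.19% for BALB/c and 2.66 and 2.59% for NOD. The other epithelial barcodes of the same mice had 1.60 and 1.48%, 1.97 and 1.94%, and 1.75 and 1.60%. The tuft-like share was higher in all 6 mice, and the groups did not overlap. Leaving out the first NOD mouse, which had 8 tuft-like barcodes, the means were 3.61% ± 0.938 against 1.72% ± 0.221 (SD, n = 5), a difference of 1.90 percentage points. The exact sign-flip permutation test over mice (two-sided) gave p = 0.0625, the smallest that 5 mice allow, and 0.344 after adjustment over 11 types. The keratinocyte-like share was 1.05 and 1.18% for B6, 1.27 and 1.18% for BALB/c and 1.26 and 1.06% for NOD, a narrow range that did not order the strains. It was 1.17% ± 0.0937 against 2.44% ± 0.464 in all other epithelial barcodes (SD, n = 6), lower in 6 of 6 mice (exact permutation p = 0.03125, adjusted 0.344). Differences of Col6+ mTECs (0.901 percentage points, higher in 4 of 4 mice) and the neuroendocrine-like class (-1.03, lower in 4 of 4) reached exact permutation p = 0.125, the smallest that 4 mice allow. None of the 11 types passed after adjustment in this test, which is limited by the number of mice.

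The share also moved with depth, which differed between the types. Among tuft-like barcodes of B6 mice it was 9.69% at 1000 to 5000 UMIs, 7.48% at 5000 to 10000, 4.75% at 10000 to 20000 and 2.89% at 20000 to 40000. In BALB/c the same bins gave 7.96, 5.61, 3.84 and 2.41%. The other epithelial barcodes had 4.75, 4.56, 1.70 and 1.11% in B6 and 6.91, 4.07, 1.81 and 1.39% in BALB/c. In each of these bins the tuft-like share was the higher one in both strains. Keratinocyte-like barcodes were deep (median 18659 UMIs against 12802 for the tuft-like class). At 20000 to 40000 UMIs they had 0.882% in B6, 0.891% in BALB/c and 0.888% in NOD, below the other non-tuft values given for that bin.

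Dropping the 15% bound moved the classes unequally. The ungated epithelium went from 2.85% to 4.45% and stood first, with 28.0% of its barcodes at or over the bound, and the tuft-like class stood second with 3.95%. The Aire+ class, mTECs that express the autoimmune regulator, lost 17.1% of its barcodes to the bound and went from 1.42 to 1.94%, whereas none of the microfold-like, enterocyte-hepatocyte-like or muscle-like barcodes were at or over it. The keratinocyte-like class was lowest with the bound and without it (1.21%). Within the mt- pool, the barcodes over the bound had another makeup. In assigned epithelial barcodes under the bound mt-Rnr1 was 10.6% of mt- UMIs and the protein-coding genes 46.0%, against 16.3 and 36.8% in assigned barcodes at or over the bound, and 18.4 and 33.5% in the 712 barcodes with under 500 genes. Those 712 barcodes had a median mt- share of 61.8%.

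The next question was whether single mt- genes differed between cell types when tested on counts. All 15 tested mt- genes were higher in the tuft-like class than in the mean of the other classes, against 25.6% of the 12938 genes tested (edgeR's quasi-likelihood test on counts summed per mouse and type, Benjamini-Hochberg adjusted p under 0.05). Their median log2 fold change was 1.09, and that of all genes tested 0.10. Without each mouse in turn 14 to 15 were higher, and 15 were higher among barcodes of 5000 to 20000 UMIs.

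Of the ribosomal RNAs, which form the core of the mitochondrial ribosome, mt-Rnr2 (the large subunit) stood at 20129 and 22156 CPM in the tuft-like barcodes for B6, 13683 and 15119 for BALB/c and 12085 and 12673 for NOD. The other epithelial barcodes had 6556, 6515, 8068, 7721, 6998 and 6509.6 in the same order of mice, which is kept below. The tuft-like values were higher without overlap, and the log2 fold change between types was 1.19 (SE 0.132, edgeR adjusted p = 7.61e-09). mt-Rnr1 (the small subunit) had 4315, 4824, 2869, 2949, 2117 and 2552 CPM in tuft-like barcodes against 1742, 1608, 2313, 2357, 1838 and 1751 elsewhere. It was higher in the tuft-like class of every mouse, but the ranges overlapped, and its log2 fold change of 0.76 (SE 0.153, edgeR adjusted p = 0.000139) was the joint smallest of the 15.

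Complex I, the NADH dehydrogenase that feeds electrons into the chain, has 7 of its subunits encoded on chrM. mt-Nd5, a proton-pumping subunit, was at 1366, 1263, 945, 985, 706 and 736 CPM in tuft-like barcodes and 454, 374, 423, 399, 399 and 369.8 elsewhere. With no overlap and a log2 fold change of 1.49 (SE 0.133, edgeR adjusted p = 9.39e-11), it was the transcript with the smallest adjusted p. mt-Nd4, another pumping subunit, had 2911, 2588, 1827, 1752, 1406 and 1378 against 1043, 915, 1156, 1117, 1074 and 985 CPM, again apart in all mice. mt-Nd1, which sits next to the quinone site, had 2536, 2399, 1641, 1495, 1395 and 1300.4 against 1036, 920.2, 1106, 1079, 1225 and 1048. mt-Nd2 had 2053, 1913, 1347, 1330.2, 1259 and 1006 against 848, 733, 997, 1037, 832 and 792, where the second NOD mouse's tuft-like value lay inside the range of the other barcodes. mt-Nd4l, encoded just upstream of mt-Nd4, was far lower, at 59.5, 55.8, 39.8, 34.1, 43.4 and 36.8 against 17.4, 15.1, 21.5, 28.7, 24.8 and 21.3 CPM. The only gene on the opposite strand among the protein-coding set is mt-Nd6, with 95.0, 109, 67.7, 83.4, 32.6 and 69.5 against 27.0, 30.1, 38.5, 48.5, 43.3 and 40.5. In mt-Nd6 alone the tuft-like value was the lower one in a mouse, NOD 1. mt-Nd3, also of complex I, is described further on, since its counts depend on strain, and its fold change between types rests on types with no UMI and is not given.

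mt-Cytb encodes cytochrome b, the only chrM-encoded subunit of complex III. Among the messengers it had the highest counts, at 8066, 7611, 5313, 5061, 4794 and 3905 CPM in tuft-like barcodes against 2860.3, 2515, 3776, 3742, 3338 and 2930.5 elsewhere. The log2 fold change between types was 0.95 (SE 0.135, edgeR adjusted p = 7.58e-07). The tuft-like NOD 2 value stood just above the highest value elsewhere. For complex IV, the cytochrome c oxidase, mt-Co1 (the catalytic core) had 1916, 1917, 1467, 1532, 1379 and 1125 CPM against 643, 506, 829, 816, 837 and 765. mt-Co2, which takes up electrons from cytochrome c, had 181, 206, 158, 155, 136 and 131 against 61.8, 52.7, 88.3, 93.0, 86.1 and 82.6. mt-Co3 had 259, 291, 222, 263, 163 and 139 against 91.3, 81.0, 118, 135, 132 and 112. Each of the complex IV transcripts was higher in the tuft-like barcodes without overlap, by log2 fold changes of 1.29, 1.22 and 1.23. For complex V, the ATP synthase, mt-Atp6 (part of the proton channel) had 889.9, 981, 749.7, 784, 684 and 564 against 344, 333, 488, 536, 475 and 419. Its overlapping neighbour mt-Atp8 had 399, 471, 329, 346, 309 and 258 against 177, 157, 244, 250.0, 189.7 and 198. Both were higher in the tuft-like barcodes of every mouse, by log2 fold changes of 0.91 and 0.84.

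**Figure D2:**
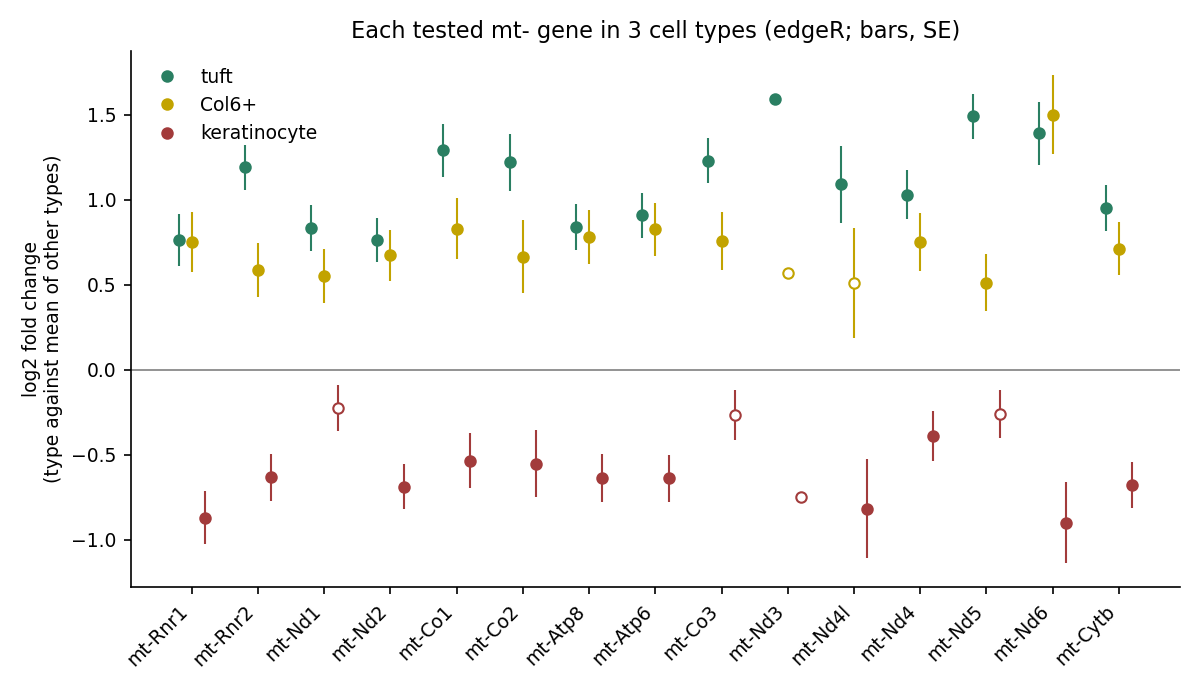
log2 fold change (vertical axis) of each tested mt- gene (horizontal axis, in order along chrM) in the tuft-like, Col6+ and keratinocyte-like classes against the mean of the other types, from edgeR; bars are standard errors, filled points have adjusted p under 0.05, and mt-Nd3 has no bar because some types had no UMI on it. The tuft-like points lie at or above 0.76 and the keratinocyte-like points below 0.

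In the keratinocyte-like class 11 of the 15 genes were lower than in the mean of the other types, against 11.9% of all genes tested, with a median log2 fold change of -0.64 (all genes, 0.08). The largest of these were mt-Nd6 (-0.90, SE 0.236) and mt-Rnr1 (-0.87, SE 0.156; edgeR adjusted p = 3.34e-05), and mt-Nd1, mt-Co3, mt-Nd3 and mt-Nd5 did not pass. mt-Rnr1 was at 1107 and 1201 CPM for B6, 1329.6 and 1171 for BALB/c and 1053 and 943 for NOD, and each of these values lay below the lowest value of all epithelial barcodes outside the tuft-like class (1608). The count was 7 without the BALB/c 2 mouse and 3 among barcodes of 5000 to 20000 UMIs.

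Col6+ mTECs showed 13 of 15 mt- genes higher, against 17.5% of all genes, with a median log2 fold change of 0.71 (all genes, 0.06). mt-Nd6 led with 1.5 (SE 0.233, edgeR adjusted p = 1.25e-05). Its level was 96.7 and 98.8 CPM for BALB/c and 103 and 83.3 for NOD, above all values of the keratinocyte-like class (11.6 to 28.2). The class is shallow (median 8572 UMIs), and among barcodes of 5000 to 20000 UMIs 0 of the genes were higher. Lower values also passed in the neuroendocrine-like class for 7 genes (3.1% of all genes lower there), in the microfold-like class for 7 (4.98%) and in the cycling class for mt-Rnr2 and mt-Nd4 (4.94%), with log2 fold changes of -0.91 and -0.68 for the last pair. The neuroendocrine-like count was 1 without the B6 2 mouse and 4 without BALB/c 2. With at least 10 barcodes a sum, the microfold-like sums came from the B6 mice alone (10 and 15 barcodes). The cycling sums came from BALB/c 2, NOD 1 and NOD 2 (16, 14 and 10 barcodes). No alternative was run for the microfold-like count. The ungated epithelium had 5 genes higher (2.22% of all genes), mt-Nd6 with 1.12 and mt-Rnr1 with 0.93 ahead. Its barcodes were shallower still than Col6+ mTECs (median 6385 UMIs), and no alternative was run for its count. The Ccl21a-high class had mt-Nd6 alone (1.08, against 9.48% of all genes higher).

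When each gene was instead measured as a part of the mt- pool (summed mt- UMIs as library size), few genes passed in any type. In the tuft-like class only mt-Nd5 had a larger part of the pool (log2 0.46, SE 0.159, edgeR adjusted p = 0.014; 9.25% of all genes called higher on this scale), at 2.98% of mt- UMIs against 2.25% in the other epithelial barcodes. That call was lost without either BALB/c mouse. In the keratinocyte-like class mt-Nd1 (0.39) and mt-Nd5 (0.36) had larger parts, where 45.6% of all genes were called higher, and without B6 2 or either BALB/c mouse 0 passed. mt-Nd6 took a larger part in Col6+ mTECs (0.83, edgeR adjusted p = 0.00604; 6.45% of all genes higher) and a smaller one in the ciliated-like class (-1.24, edgeR adjusted p = 0.0118; 7.03% lower).

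The nuclear partners of these genes did not follow the same pattern. Of 75 nuclear genes of complexes I to V, all tested, 12 were higher and 3 lower in the tuft-like class (25.6 and 11.7% of all genes), with a median log2 fold change of -0.00486. The largest was Sdha, the catalytic subunit of the wholly nuclear complex II, at 2.51 (SE 0.151, edgeR adjusted p = 1.14e-14), and Ndufv3 (1.19) and Ndufa1 (0.96) of complex I followed. Of 20 tested genes that copy, process or translate chrM transcripts, 1 was higher, Ssbp1, which binds single-stranded mitochondrial DNA (1.37), and 3 were lower, among them Prorp of the mitochondrial RNase P (-0.87). Esrra, a nuclear receptor that drives mitochondrial genes, was higher (1.22) and its relative Esrrg lower (-1.21). Pink1, a kinase of mitochondrial quality control, was higher (2.24). Of 13 glycolysis genes 3 were higher and 3 lower (median 0.10), among them the hexokinases Hk1 (2.19) and Hk2 (-1.35). RNAs kept in the nucleus were called higher too, in 3 of 4 (Neat1 1.95, Malat1 1.47 and Meg3), and their part in the mt- values was not tested. The Meg3 call rests on groups near 0, so its fold change is not given. In BALB/c, Meg3 was lower in the tuft-like barcodes (77.8 and 54.2 CPM) than in the other epithelial barcodes (128 and 131). It was at most 5.43 CPM in B6 and NOD. In the keratinocyte-like class 12 of the 75 were higher and 4 lower (23.7 and 11.9% of all genes; median 0.08), Ndufa4 leading with 1.68. In Col6+ mTECs, where 13 of 15 mt- genes were higher, 62 of the 75 nuclear genes were lower and 0 higher (median -0.85; 9.77% of all genes lower), led by Uqcrfs1, the iron-sulfur protein of complex III (-1.45), and Cox6a1 of complex IV (-1.42). In the same class 7 of 13 glycolysis genes and 7 of 12 genes of mitochondrial chaperones and import were lower and 0 of either higher, and 1 of 4 RNAs kept in the nucleus was higher (Malat1 0.80, edgeR adjusted p = 0.00205), whose part in the mt- values was not tested.

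The study's other comparison is between strains. Over all epithelial barcodes the mt- share was 2.81 and 2.66% for B6, 2.33 and 2.35% for BALB/c and 1.83 and 1.71% for NOD. The strains did not overlap, and the exact permutation test over the 3 strains gave p = 0.0667, the smallest that 6 mice in 3 strains allow. Each pair of strains can reach no lower than an exact permutation p of 0.333, and all 3 pairs stood at that value. Among barcodes of 5000 to 20000 UMIs the direction between NOD and BALB/c turned, with means of 4.25% for B6, 3.06% for BALB/c and 3.30% for NOD and no overlap. The makeup of the mice differed along the same order: tuft-like barcodes were 55.4 and 43.4% of the epithelial barcodes for B6, 31.3 and 31.1% for BALB/c and 7.69 and 8.77% for NOD. They held 66.7 and 64.8% of the epithelial mt- UMIs for B6, 43.1 and 44.98% for BALB/c and 12.9 and 16.3% for NOD. Outside the tuft-like class the order was another one, with 1.60 and 1.48% for B6, 1.97 and 1.94% for BALB/c and 1.75 and 1.60% for NOD. There the B6 mean lay 0.415 percentage points below that of BALB/c. Among barcodes of 5000 to 20000 UMIs that order was lost: B6 (2.36%) and BALB/c (2.42%) overlapped, with a difference of 0.0573 points, and NOD was highest (3.18%) without overlap. The barcodes outside the tuft-like class also differed in makeup between strains (91 and 116 for B6, 263 and 384 for BALB/c, 96 and 104 for NOD). Ccl21a-high mTECs were 7 and 9 of them for B6, 81 and 130 for BALB/c and 13 and 6 for NOD. Col6+ mTECs were 0 and 5, 24 and 47, and 27 and 44. The part of this makeup in the strain differences was not tested. Within the keratinocyte-like class, the one with at least 10 barcodes in each mouse, the strains overlapped (exact permutation p = 0.467 over the 3 strains).

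Per gene and over all epithelial barcodes, 8 of the 19 tested mt- genes were lower in NOD than in B6, against 14% of the 15329 genes tested, and 0 were higher (14.3% of all genes; median log2 fold change -0.49; all genes, -0.03). They were both ribosomal RNA genes, mt-Nd2, mt-Nd3, mt-Nd4, mt-Nd5, mt-Cytb and the transfer RNA gene mt-Tc. mt-Rnr2, at -0.65 (SE 0.0969, edgeR adjusted p = 0.00375), and mt-Nd5, at -0.79 (SE 0.123), were the largest apart from mt-Nd3 and mt-Tc. mt-Tc had 33 and 46 UMIs for B6, 47 and 39 for BALB/c and 9 and 4 for NOD (-1.84, SE 0.541, edgeR adjusted p = 0.0418). Of BALB/c against B6, mt-Nd3 alone was lower (5.58% of all genes lower), and of NOD against BALB/c 0 were lower or higher by edgeR (5.16% of all genes lower, 4.27% higher; 6 had an unadjusted p under 0.05). RNAs kept in the nucleus were lower in NOD as well, in 2 of 4 (Malat1 -0.97, edgeR adjusted p = 0.00191; Neat1 -0.97, edgeR adjusted p = 0.00442; list median -0.96), and their part in the mt- values was not tested. The NOD against B6 count was 3 without B6 1, 4 without NOD 1, 3 without NOD 2 and 1 among barcodes of 5000 to 20000 UMIs. A fit with cell type as a term used limma voom on sums per mouse and type, with mouse as a block. The correlation within mice was estimated at -0.0256, so the sums of a mouse counted nearly as separate replicates of its strain. In that fit mt-Nd3 alone passed of 15 tested mt- genes. It was lower in BALB/c than in B6 (log2 -3.11, 1.29% of all genes lower) and in NOD than in B6 (-2.20, 1.55%). The NOD value lost its call without B6 1, B6 2 or NOD 2.

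A further pair of fits, added after the values had been seen, compared the strains within the tuft-like class and tested whether the tuft-like difference varied by strain. Within the class, 5 of 17 mt- genes were lower in BALB/c than in B6 (5.26% of all genes lower) and 9 of 17 were lower in NOD than in B6 (5.37%). mt-Nd4, for instance, was lower by a log2 fold change of -0.67 (SE 0.193, edgeR adjusted p = 0.0487) in BALB/c and -0.98 (SE 0.199, edgeR adjusted p = 0.0112) in NOD. Against the other epithelial barcodes of the same mice, 15 of 19 mt- genes were higher in the tuft-like class of B6 (17.4% of all genes), 14 in BALB/c (19.7%) and 4 in NOD (11%). mt-Co1 showed log2 differences of 1.85 (SE 0.185) in B6, 0.96 (SE 0.180) in BALB/c and 0.67 (SE 0.186) in NOD. The difference itself was smaller in BALB/c than in B6 for 4 genes (1.94% of all genes) and smaller in NOD than in B6 for 9 genes (1.66%), and 0 genes differed between NOD and BALB/c by edgeR (0.113% of all genes lower, 0.14% higher; 1 had an unadjusted p under 0.05). These counts rest on 2 mice a strain and 18 NOD tuft-like barcodes: without a mouse in turn they ran from 0 (without B6 1, B6 2 or BALB/c 2) to 11 (without NOD 1 or NOD 2) for BALB/c and, for NOD, fell to 2 without B6 1, 1 without B6 2 and 2 without NOD 1. Within the class they ran from 1, without any 1 of the B6 or BALB/c mice, to 9 for BALB/c and, for NOD, were 1 without B6 1, 2 without B6 2 and 3 without either BALB/c mouse. The tuft-like difference was taken against the other epithelial barcodes pooled, whose makeup differed between strains as given above. The part of that makeup in these counts was not tested.

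A tuft-like barcode held a mean of 586 and 651 mt- UMIs for B6, 533 and 562 for BALB/c and 612 and 633 for NOD, so that BALB/c lay below the other strains and B6 and NOD overlapped. The mean of all other UMIs was 12362 and 13234 for B6, 16830 and 17042 for BALB/c and 22414 and 23821 for NOD, in rising order with no overlap between strains. Outside the tuft-like class the mt- UMIs per barcode were 363, 271, 321, 309.8, 345 and 312, and the others 22388, 18043, 15956, 15679, 19371 and 19139. So the tuft-like barcodes held more mt- UMIs than the rest in all 6 mice, but held fewer other UMIs than the rest in B6 alone. Within bins of depth the B6 tuft-like share still lay above that of BALB/c, as given for the 4 bins above; NOD had under 10 tuft-like barcodes in each. In sums over barcodes of several classes, such as all epithelial barcodes, fewer cells of a kind and less RNA per cell cannot be told apart. Red-cell markers summed to 354 and 362 CPM in the BALB/c tuft-like class and to at most 4.09 in that of B6 and NOD. In the other epithelial barcodes they summed to 55.1 and 2.61 CPM for BALB/c and at most 12.6 in the other strains, and their part in these differences was not tested.

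**Figure D3:**
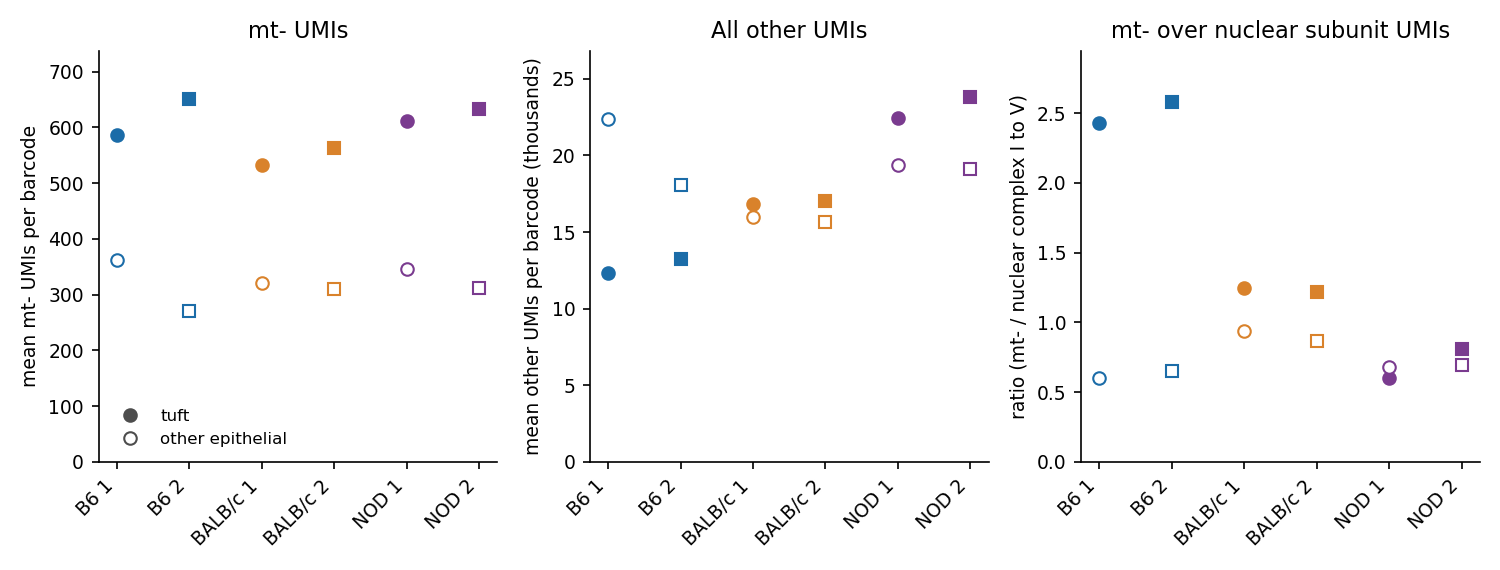
Mean mt- UMIs per barcode (left), mean other UMIs per barcode, divided by 1000, (middle) and the ratio of mt- UMIs to UMIs of 75 nuclear genes of complexes I to V (right) for each mouse (horizontal axis); filled points are tuft-like barcodes and open points the other epithelial barcodes. The tuft-like mt- counts of B6 and NOD overlap and those of BALB/c lie below both, while the other counts rise and the ratio falls from B6 over BALB/c to NOD.

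The ratio of mt- to nuclear subunit transcripts set the strains apart in the tuft-like class. It was 2.43 and 2.58 for B6, 1.25 and 1.22 for BALB/c and 0.602 and 0.811 for NOD. In the other epithelial barcodes it was 0.603 and 0.652, 0.937 and 0.867, and 0.684 and 0.695. The strains did not overlap there either, but in another order, with B6 lowest and BALB/c highest. In B6 the tuft-like ratio was thus far above that of the remaining epithelium, in BALB/c moderately so, and in NOD the groups overlapped. The nuclear subunits moved the opposite way to the mt- genes: within the tuft-like class 57 of the 74 tested were higher in NOD than in B6 and 0 lower (median log2 fold change 1.03, all genes -0.10; 6.52% of all genes higher), while 9 of 17 mt- genes were lower. All 11 tested complex IV genes were among them, such as Cox6a1 at 1.62 (SE 0.199, edgeR adjusted p = 0.00113). For 29 of 75 nuclear subunits the tuft-like difference itself was larger in NOD than in B6 (2.37% of all genes), and Cox6a1 led with 1.91. These nuclear counts rest on 8 and 10 NOD tuft-like barcodes, with medians of 23556 and 24746 UMIs. The B6 tuft-like medians were 8864 and 10505. The nuclear counts were not checked with a mouse left out or at limited depth.

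mt-Nd3 stood apart, because its strain difference came with the opposite difference in a nuclear copy. Copies of chrM sequence inserted in nuclear chromosomes are common in mammals. Among annotated genes with any UMI here, 17 matched 11 of the 37 mt- genes in the same sense (at least 90% identity over at least 100 bases). The transfer RNA genes, at 59 to 75 bases, are too short to reach that length. A block on chromosome 1 between 24611535 and 24616197 (mm10, minus strand) holds copies of mt-Nd4, mt-Nd4l, mt-Nd3, mt-Co3, mt-Atp6, mt-Co2 and mt-Co1. The aligned parts of 5 of these copies are identical to the mt- gene, so reads inside them could not be told apart, and how such reads were counted is not given in the sources used here. The copy of mt-Nd3, Gm28438, differs from it by a single base. The first 60 bases of both transcripts (GENCODE M21, build mm10; mt-Nd3 at chrM:9459-9518, plus strand, and Gm28438 at chr1:24613060-24613119, minus strand) are shown because this is the one base within the genes at which their reads can be told apart, and it is in capitals:
mt-Nd3: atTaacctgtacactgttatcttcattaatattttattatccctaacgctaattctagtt
Gm28438: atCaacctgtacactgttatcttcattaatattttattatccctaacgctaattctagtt
Counted from 1 at the 5′ end of the transcript, with the base of mt-Nd3 first, the difference is T3C, which lies at position 9461 of chrM.

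Over the epithelial barcodes mt-Nd3 had 127 and 113 UMIs for B6, 28 and 27 for BALB/c and 5 and 11 for NOD, or 35.9 and 33.6, 4.40 and 2.94, and 2.41 and 4.85 CPM. Gm28438 had 2 and 2 UMIs for B6, 151 and 189 for BALB/c and 29 and 43 for NOD, or 0.566 and 0.595, 23.7 and 20.6, and 14.0 and 19.0 CPM. mt-Nd3 was therefore high in both B6 mice and low in the other 4, and Gm28438 the reverse, with no overlap in either. The fold changes for BALB/c and NOD against B6 were -3.27 (SE 0.314, edgeR adjusted p = 0.00255) and -3.15 (SE 0.364, edgeR adjusted p = 0.00171) for mt-Nd3 on the log2 scale. For Gm28438 they were 5.17 (SE 0.377, edgeR adjusted p = 0.0011) and 4.85 (SE 0.400, edgeR adjusted p = 0.000601). Gm28438 made 1.55 and 1.74% of the UMIs on both genes for B6, 84.4 and 87.5% for BALB/c and 85.3 and 79.6% for NOD.

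Summed over both genes, the strains lay closer together. The sums were 36.5 and 34.2 CPM for B6, 28.1 and 23.5 for BALB/c and 16.4 and 23.8 for NOD. Outside the tuft-like class the summed means were 23.16 CPM in B6, 23.17 in BALB/c and 19.8 in NOD (n = 2 mice each). In the tuft-like class the sums were 54.7 in B6, 31.2 in BALB/c and 22.5 in NOD, where the BALB/c mice (34.6 and 27.9) and the NOD mice (16.3 and 28.6) overlapped. There and over all epithelial barcodes, the B6 sums stayed above those of both other strains without overlap. Each of these pairs stood at an exact permutation p of 0.333, the smallest possible. The exact permutation test of the sums outside the tuft-like class gave p = 1 for BALB/c against B6 and 0.667 for NOD against B6. The strain difference of mt-Nd3 itself kept its direction under each alternative run, and its sum with Gm28438 was formed after the values had been seen.

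**Figure D4:**
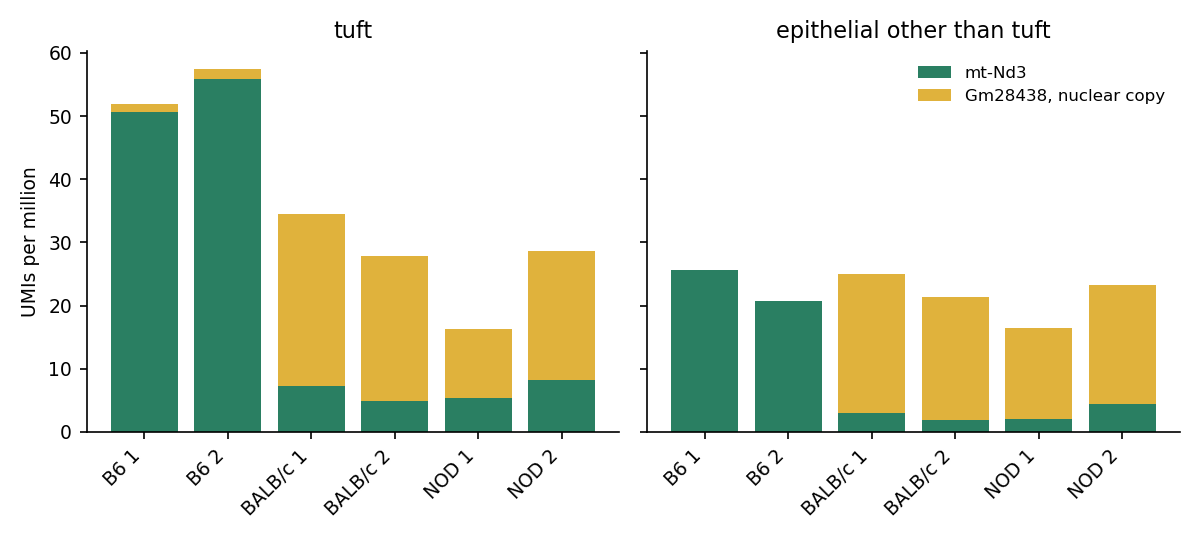
CPM (vertical axis) on mt-Nd3 (green) and on its nuclear copy Gm28438 (yellow), stacked, for each mouse (horizontal axis), in tuft-like barcodes (left) and other epithelial barcodes (right). The B6 bars are almost all mt-Nd3 and the BALB/c and NOD bars mostly Gm28438, while the full bars outside the tuft-like class reach similar heights in all 3 strains.

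A second pair, mt-Co1 and Gm13340, differed between barcodes and, over all epithelial barcodes, also between strains. Gm13340 lies on chromosome 2 (22588103 to 22589647, minus strand), spans the whole of mt-Co1 with 37 differences in 1545 bases (97.6% identity), and sits between copies of mt-Co2 (Gm13341) and mt-Nd2 (Gm13339). The last 120 bases of each are shown, since a 3' protocol reads near that end, with the 3 differing bases in capitals (mt-Co1 at chrM:6753-6872, plus strand; Gm13340 at chr2:22588103-22588222, minus strand):
mt-Co1: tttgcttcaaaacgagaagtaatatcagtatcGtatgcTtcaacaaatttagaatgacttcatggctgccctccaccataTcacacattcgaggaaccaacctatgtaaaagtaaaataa
Gm13340: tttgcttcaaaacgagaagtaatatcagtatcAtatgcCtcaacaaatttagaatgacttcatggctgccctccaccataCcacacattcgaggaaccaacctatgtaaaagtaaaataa
In the same notation these are G1458A, T1464C and T1506C.

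Gm13340 made 9.28 and 9.25% of the epithelial UMIs on the pair for B6, 2.93 and 3.04% for BALB/c and 1.24 and 4.50% for NOD, highest in both B6 mice. It was lower in NOD than in B6 over all epithelial barcodes (log2 fold change -2.09, SE 0.487, edgeR adjusted p = 0.0313) and with cell type as a term (-3.33, SE 0.929, limma adjusted p = 0.0284). Against B6, BALB/c values of -1.81 and -2.15 did not pass (edgeR adjusted p = 0.0647, limma adjusted p = 0.15). Its neighbour Gm13341, a copy of mt-Co2, was also lower in NOD than in B6 over all epithelial barcodes (-2.27, SE 0.49, edgeR adjusted p = 0.0151) but did not pass with type as a term (limma adjusted p = 0.144). In the fit with type as a term the sums of a mouse counted nearly as separate replicates of its strain, as given above. The higher part of Gm13340 in B6 rested on few barcodes. Leaving out barcodes with at least 20% of the pair on Gm13340 (at 5 or more UMIs) kept 198 of 204 and 200 of 205 for B6. Gm13340 then made 0.426 and 0.503% for B6, 0.505 and 0.591% for BALB/c and 0.653 and 0.888% for NOD.

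Among barcodes with at least 10 UMIs on the pair, nearly all held mostly one gene or mostly the other. Of 1120 hashtag-assigned barcodes, 1020 had under 10% of the UMIs on Gm13340. Of 685 barcodes with no assignment, 474 had 90% or more and 170 under 10%. At 5 or more UMIs on the pair, 91 assigned and 547 unassigned barcodes had at least 20% on Gm13340. The 547 had a median of 101 hashtag UMIs against 4191.5 for the 192 unassigned barcodes under 20%, and 315 of them passed a leukocyte gate. All 195 myeloid or dendritic barcodes with enough UMIs were in the class of at least 20%, whereas 74 tuft-like ones were in it and 586 below it. In that unassigned class the UMIs on nuclear copies came to 38.8% of the mt- UMIs, and in assigned barcodes under 20% to 0.2%. For the assigned barcodes used in the comparisons above, leaving out those with at least 20% on Gm13340 kept all 15 mt- genes higher in the tuft-like class.

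**Figure D5:**
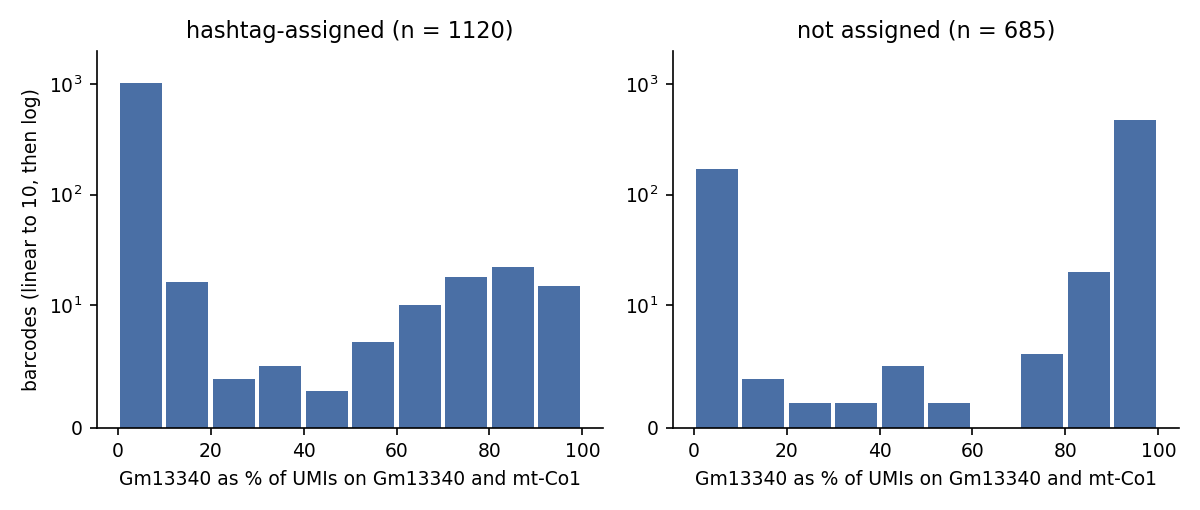
Barcodes (vertical axis, linear to 10 and logarithmic above) by the percent of their UMIs on mt-Co1 and Gm13340 that fell on Gm13340 (horizontal axis, bins of 10%), for hashtag-assigned (left) and unassigned (right) barcodes with at least 10 such UMIs. Assigned barcodes gather under 10% (1020 of 1120) and unassigned ones at both ends (170 under 10%, 474 at 90% or more).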

How the data were processed

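The deposited files hold raw counts (UMIs per gene and barcode) of 1 gene-expression library and its hashtag library, which the authors made with Cell Ranger 7.0.0 on mm10, per the submitters' processing notes. The annotation release, the use of strand and the counting of reads that match several places are not given in the sources used here. The members and lists were chosen with earlier results of these data known.

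Gates needed at least 3 markers of a list and 20 summed marker UMIs per 10000 (10 for the cycling and myeloid lists), with a lead of 2 over the next list. Single-gene gates used levels of 2 to 10. No doublet caller was run. Barcodes with more than 1 gate and no clear lead were kept out of the classes. They counted as epithelial if they passed the epithelial markers and no leukocyte gate. Counts were summed per mouse and type (at least 10 barcodes, 38 sums) and tested with edgeR 4.0.16 or limma 3.58.1 after edgeR's filter on low counts, with p-values adjusted over all genes. Shares were tested by exact permutation over mice. Some of the fits were also run on simulated counts. Those counts were drawn independently for each sum, with no mouse effect. They cannot show how the fits behave where sums share a mouse. The mice are separate animals of 1 library, so effects of a hashtag and of its mouse cannot be told apart. Same-numbered mice of different strains share only a number.

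Alternatives were the bound, gene minimum, hashtag share, gate, normalization, low-count filter, DESeq2 1.42.0, a replicate block and each mouse left out. The genes named were both ribosomal and all protein-coding mt- genes, the 3 transfer RNA genes with the most UMIs, up to 3 genes of each companion list by size of change and the 5 nuclear genes of most similar pattern. Sequences and nuclear copies come from GENCODE M21 transcripts compared with BLAST+ 2.17.0.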

Additional observations from a re-analysis of the deposited data

Results flagged for a closer look

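The difference between the tuft-like and the other epithelial barcodes of the same mice varied with strain by a test of the difference itself (edgeR interaction, adjusted p under 0.05, n = 2 mice a strain). For BALB/c against B6 it was smaller for mt-Rnr1 (-1.13 on the log2 scale), mt-Co2 (-0.97), mt-Atp8 (-0.93) and mt-Cytb (-1.08). For NOD against B6 it was smaller for mt-Rnr1 (-1.14), mt-Nd1 (-1.15), mt-Co1 (-1.18), mt-Co2 (-1.16), mt-Atp6 (-1.05), mt-Co3 (-1.43), mt-Nd4 (-1.12), mt-Nd6 (-1.57) and mt-Cytb (-1.15). The makeup of the other epithelial barcodes also differed between strains, and its part in these values was not tested. The fit was added after the values had been seen, and its NOD side rests on 8 and 10 tuft-like barcodes. Which genes passed depended on single mice and, for BALB/c, on depth, as described elsewhere in this text.

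Hashtags that belong to none of the 6 mice also had UMIs. HT4 had 3282, HT9 had 3249 and HT12 had 3303, while HT7 had 43, HT11 had 24 and HT10 had 10. The hashtags of the 6 mice had 370031 to 4001161.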

How the results depend on the processing

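Of 508 recomputed values over 38 results, 433 kept their direction and their side of the threshold, or stayed within 1.5 times for counts, 11 lost their call, 63 moved and 1 reversed. The restriction to barcodes of 5000 to 20000 UMIs, the removal of barcodes high in Gm13340, the sums with nuclear copies and both fits of the tuft-like class by strain were chosen after seeing the data. The cause of the changes was not tested.

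Among barcodes of 5000 to 20000 UMIs the share in NOD minus BALB/c turned to 0.247 percentage points, and the counts of mt- genes became 3 lower in the keratinocyte-like class, 0 higher in Col6+ mTECs, 1 lower in NOD than B6, 0 with cell type as a term, 0 with a larger part of the pool in the tuft-like or the keratinocyte-like class, 0 with a smaller tuft-like difference in BALB/c and 1 lower in BALB/c within the tuft-like class. Without the bound the counts were 13 lower in the neuroendocrine-like class, 10 with a smaller tuft-like difference in BALB/c and 3 lower in NOD within the tuft-like class. With a hashtag share of 90% they were 12 in the neuroendocrine-like class, 0 with type as a term for NOD, 1 for the keratinocyte-like pool and 1 for BALB/c within the tuft-like class; with at least 1000 genes, 11 in the neuroendocrine-like class. Without barcodes high in Gm13340 they were 12 in the neuroendocrine-like class, 3 with type as a term for NOD, 1 for the keratinocyte-like pool and 7 for the tuft-like difference in BALB/c. With the stricter gate they were 0 and 0 for both pools, 8 for the tuft-like difference in BALB/c and 8 for BALB/c within the class. With library totals they were 4 in the neuroendocrine-like class and 1 for BALB/c within the tuft-like class. DESeq2 called 2 genes lower in BALB/c than B6.

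Without each mouse in turn the counts ran from 7 to 10 (keratinocyte-like), 1 to 10 (neuroendocrine-like), 9 to 13 (Col6+), 3 to 7 (NOD against B6), 0 to 1 (NOD, type as a term), 0 to 1 (each pool), 0 to 11 and 1 to 13 (tuft-like difference in BALB/c and NOD), and 1 to 9 and 1 to 11 (BALB/c and NOD within the class). With the replicate number as a block, 1 and 8 mt- genes were lower in BALB/c and NOD than in B6, and mt-Nd3 was at -3.27 and -3.14, so no call changed. With 2 mice a strain and 18 NOD tuft-like barcodes, differences in NOD were poorly resolved, and most transfer RNA genes were too low to test.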

Other observations

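Over the 38 sums of mouse and type, the 5 nuclear genes whose level followed the summed mt- level most closely, among 4056 genes with a mean of at least 50 CPM, were Etv6 (Spearman rho 0.872), Mical3 (0.86), Atf7ip (0.834), Dtnb (0.832) and Pnisr (0.821). The sums share 1 library and the same mice, so these values describe these sums. The most opposite genes were Tomm22, a receptor of mitochondrial protein import (-0.781), and Eif6 (-0.775).

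Within the tuft-like class of BALB/c, barcodes with a UMI on Sparc had a lower mt- share than those without, at 2.63 against 3.31% in BALB/c 1 and 2.49 against 3.47% in BALB/c 2. The groups held 31 and 89 barcodes in the first mouse and 33 and 140 in the other. The other mice had 2 to 5 barcodes with Sparc: the share with it was lower in B6 1 (3.88 against 4.57%), B6 2 (3.69 against 4.81%) and NOD 1 (1.53 against 3.57%) and higher in NOD 2 (2.98 against 2.46%). The difference was not tested.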
